A study of Mus musculus with 12 samples.

Results

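*Ccn1*, *Ccn2*, *Ccn5*, *Ankrd1*, *Amotl2*, *Axl*, *Yap1* and *Tead1* are described here in mouse 4T1 cells that had or had not been exposed to Gr1+ myeloid cells. The 8 genes were chosen by symbol, as secreted CCN proteins, genes that respond to the coactivator YAP, and the YAP and TEAD machinery itself, out of 35521 genes with counts. *Ccn1*, *Ccn2* and *Ccn5* were formerly called *Cyr61*, *Ctgf* and *Wisp2*. 4T1 cells are an established carcinoma line of the mouse mammary gland that forms tumors in BALB/c mice. Bulk RNA-Seq was performed on 3 groups with 4 libraries each. Tu-primed cells (labelled 4T1_MDSC_T) shared a Transwell for 48 hours with Gr1+ cells taken from tumors, Spl-primed cells (4T1_MDSC_S) did so with Gr1+ cells taken from spleens, and parental cells (4T1) were left without coculture. The Gr1+ cells came from BALB/c mice carrying 4T1 tumors, at day 21 after injection by the labels, were isolated on magnetic columns, and were separated from the 4T1 cells by a membrane with 0.4 μm pores. All 3 groups are therefore the same cell line, and the parental group lacks the coculture itself as well as the myeloid cells. The labels do not say whether libraries came from separate cultures or separate mice, so p-values measure the spread between these libraries, which may be technical.

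CCN proteins are secreted, matrix-associated modulators that bind integrins and proteoglycans at the cell surface. YAP is a transcriptional coactivator held out of the nucleus when kinases of the Hippo pathway phosphorylate it. In the nucleus YAP binds TEAD factors on DNA, and *Ccn1*, *Ccn2* and *Ankrd1* are among the genes most often used to read YAP and TEAD activity. In mammary tumor cells these genes respond to matrix stiffness, cell density and soluble ligands.

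TEAD factors recognize the core GGAATG. The promoter windows of 4 genes are shown because they represent the 3 behaviors met below. Against parental cells, *Ankrd1* was higher in both primed groups and *Ccn1* in Spl-primed cells. *Axl* was lower in both primed groups, and *Amotl2* was level in scaled counts. Each window runs from 250 bases before to 50 bases after the RefSeq start on GRCm38.p6, 5′ to 3′ on the strand of the gene, with the core (GGAATG or its reverse complement CATTCC) in capitals.
Ankrd1 promoter, chr19:36119795-36120094, minus strand: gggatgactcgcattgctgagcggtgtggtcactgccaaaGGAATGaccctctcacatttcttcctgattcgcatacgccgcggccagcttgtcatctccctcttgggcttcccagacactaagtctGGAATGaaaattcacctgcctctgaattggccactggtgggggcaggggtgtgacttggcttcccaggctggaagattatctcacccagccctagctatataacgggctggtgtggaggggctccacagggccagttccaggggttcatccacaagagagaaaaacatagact
Ccn1 promoter, chr3:145649936-145650235, minus strand: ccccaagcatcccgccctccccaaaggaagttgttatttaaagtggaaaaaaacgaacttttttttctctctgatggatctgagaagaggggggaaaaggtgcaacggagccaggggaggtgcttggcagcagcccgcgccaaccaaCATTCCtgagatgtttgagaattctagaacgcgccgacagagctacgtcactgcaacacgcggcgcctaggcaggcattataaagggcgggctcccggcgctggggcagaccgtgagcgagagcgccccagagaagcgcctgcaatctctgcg
Axl promoter, chr7:25788684-25788983, minus strand: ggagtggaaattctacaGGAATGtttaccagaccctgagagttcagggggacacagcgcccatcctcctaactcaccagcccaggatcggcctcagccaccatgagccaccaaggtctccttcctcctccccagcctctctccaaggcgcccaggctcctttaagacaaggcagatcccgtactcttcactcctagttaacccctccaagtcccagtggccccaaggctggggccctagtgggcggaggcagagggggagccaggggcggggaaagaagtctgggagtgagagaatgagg
Amotl2 promoter, chr9:102717554-102717853, plus strand: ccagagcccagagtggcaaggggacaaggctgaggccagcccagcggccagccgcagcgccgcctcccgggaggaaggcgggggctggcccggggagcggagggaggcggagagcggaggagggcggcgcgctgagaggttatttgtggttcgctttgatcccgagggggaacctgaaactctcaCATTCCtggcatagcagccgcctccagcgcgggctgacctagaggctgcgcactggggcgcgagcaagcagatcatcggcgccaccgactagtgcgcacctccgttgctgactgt
Of the 8 genes, 5 had a window in the RefSeq table, and all 5 of these held the core, which was found in 14.7% of 32851 promoter windows of the same length. *Ankrd1* held it at 210 and 123 bases before the RefSeq start, *Ccn1* at 103, *Axl* at 233, *Yap1* at 141 and *Amotl2* at 65. The AP-1 core TGANTCA and the CArG box bound by SRF, searched on both strands, were in none of the 5 windows. Over all windows they were found in 7.81% and 1.63%, so 5 windows are too few to show a lower rate. A match describes the letters of a window and not a bound site. The start sites of the transcripts that drew the most reads did not all lie at the RefSeq start. For *Ccn1*, *Axl* and *Yap1* they lay within 46 bases of it. For *Ankrd1* the RefSeq start was 255 bases inside the most abundant transcript, so both cores lay inside that transcript, and for *Amotl2* the transcript with the most reads in primed cells, Amotl2-203, started 2483 bases further downstream, while Amotl2-201, which held more reads in parental cells, started 136 bases upstream. The *Amotl2* core, 65 bases before the RefSeq start, therefore lay inside Amotl2-201 and upstream of Amotl2-203.

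**Figure D1:**
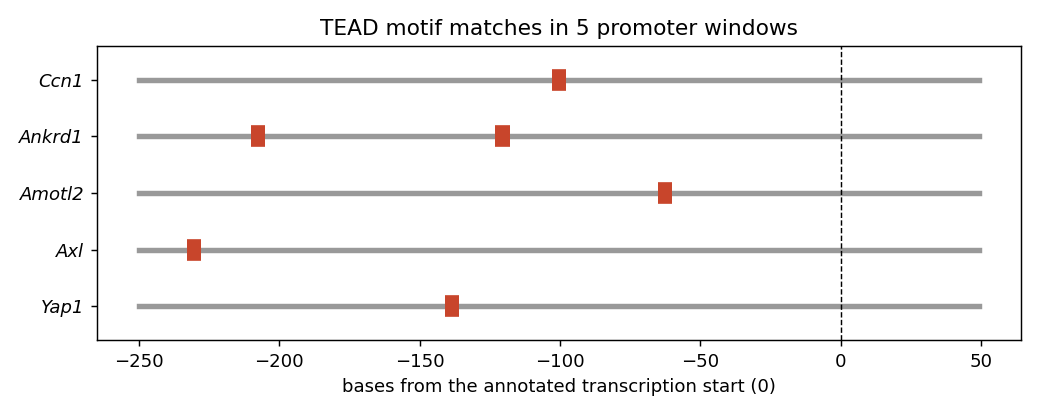
Positions of the TEAD core in the 5 promoter windows. The x axis gives bases from the RefSeq transcription start (dashed line), each grey line is a window and each red block is a match to the core. Every window has at least 1 match upstream of the start, and *Ankrd1* has 2.

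The libraries held from 24566183 to 31637755 estimated reads on transcripts. 12555 genes passed the filter on low counts, among them all 8 genes described here. Spl-primed library 3 stood apart within its group, with a chi-square per degree of freedom over genes between 30.4 and 37.7 against the other Spl-primed libraries, which differed from each other by between 3.43 and 7.37. Parental libraries 1 and 2 differed less from each other (5.84) than from libraries 3 and 4 (between 21.3 and 61.7). Calls of the 8 genes that changed when a library was left out are named with that library. In bulk libraries, fewer cells expressing a gene and less RNA per cell cannot be told apart. Levels below are TMM-scaled CPM, counts scaled to a common library size. The 10 epithelial markers, led by the keratins *Krt8* and *Krt18*, had reads for 9 genes in each group, with *Krt5* at 0. Their summed level, mostly keratins, lay between 1916 and 2351 CPM in Tu-primed, between 2405 and 2595 CPM in Spl-primed and between 2675 and 3989 CPM in parental libraries. The markers did not all move with this sum. Of 9 tested, 1 was called higher (*Cldn4*, 0.41) and 4 lower in Tu-primed than parental cells. In Spl-primed cells 2 were higher (*Cldn4*, 0.39, and *Epcam*, 0.30) and 3 lower. These are 55.6% of the 9 each time, against 59.2% and 48.2% of all genes called. Of the 20 leukocyte and granulocyte markers looked up, 13 had reads in Tu-primed cells, 12 in Spl-primed and 11 in parental cells. *Itgb2* made up most of their summed level, which lay between 223 and 247 CPM in Tu-primed libraries, between 237 and 246 CPM in Spl-primed libraries and between 172 and 203 CPM in parental libraries. *Itgb2* was called higher than in parental cells by 0.31 in Tu-primed (edgeR adjusted p = 0.000330) and by 0.35 in Spl-primed cells (edgeR adjusted p = 0.000247). The pan-leukocyte gene *Ptprc*, with 53 counts over the 12 libraries, averaged 0.0882 CPM in Tu-primed, 0.163 CPM in Spl-primed and 0.231 CPM in parental cells. *Lyz2*, with 25 counts, averaged 0.124, 0.0607 and 0.0411 CPM in the same order. *Mpo*, *Elane*, *Camp* and *Tyrobp* were at 0 in all 12 libraries. The granulocyte marker *Ltf*, which epithelial cells also express, averaged 4.16 CPM in Tu-primed, 1.86 CPM in Spl-primed and 1.79 CPM in parental cells. It was higher in Tu-primed than Spl-primed cells by 1.16 on the log2 scale (edgeR adjusted p = 0.000820) and than parental cells by 1.21 (edgeR adjusted p = 5.80e-05). Of 9 fibroblast markers, *Pdgfra* alone passed the filter and was higher in Tu-primed than Spl-primed cells by 0.62 on the log2 scale, while *Col3a1* and *Lum* were at 0. Their summed level lay between 76.3 and 97.9 CPM in Tu-primed, between 42.5 and 66.9 CPM in Spl-primed and between 42.8 and 55.8 CPM in parental libraries, almost all of it *Pdgfra*. The part of these markers in the results was not tested.

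Priming by tumor Gr1+ cells, compared with priming by splenic Gr1+ cells, moved 1 of the 8 genes past an adjusted p of 0.05: *Ccn5* was higher in Tu-primed cells. Across all genes tested, 7.63% were called in this comparison, 4.66% higher and 2.97% lower. Against parental cells, *Ccn5* and *Ankrd1* were higher and *Axl* and *Yap1* lower in Tu-primed cells, where 31.2% of genes were called higher and 28% lower. In Spl-primed cells *Ankrd1*, *Ccn1* and *Ccn5* were higher and *Axl* lower than in parental cells, where 25.7% of genes were called higher and 22.5% lower. With 4 of 8 genes called in each comparison with parental cells, against 59.2% and 48.2% of all genes, the share of the 8 genes was near the background. The libraries of the groups did not overlap for 1 gene between the primed groups and for 4 genes in each comparison with parental cells, against 17%, 55.5% and 39.6% of all genes. The comparisons share groups and are not independent of each other. The median log2 fold change of the 8 genes was -0.01 between the primed groups, 0.02 for Tu-primed and 0.15 for Spl-primed against parental cells, beside -0.01, 0.02 and 0.02 over all genes tested. All tests of genes used edgeR's quasi-likelihood test, adjusted by Benjamini-Hochberg over the 12555 genes, and group values are means ± SD of 4 libraries.

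**Figure D2:**
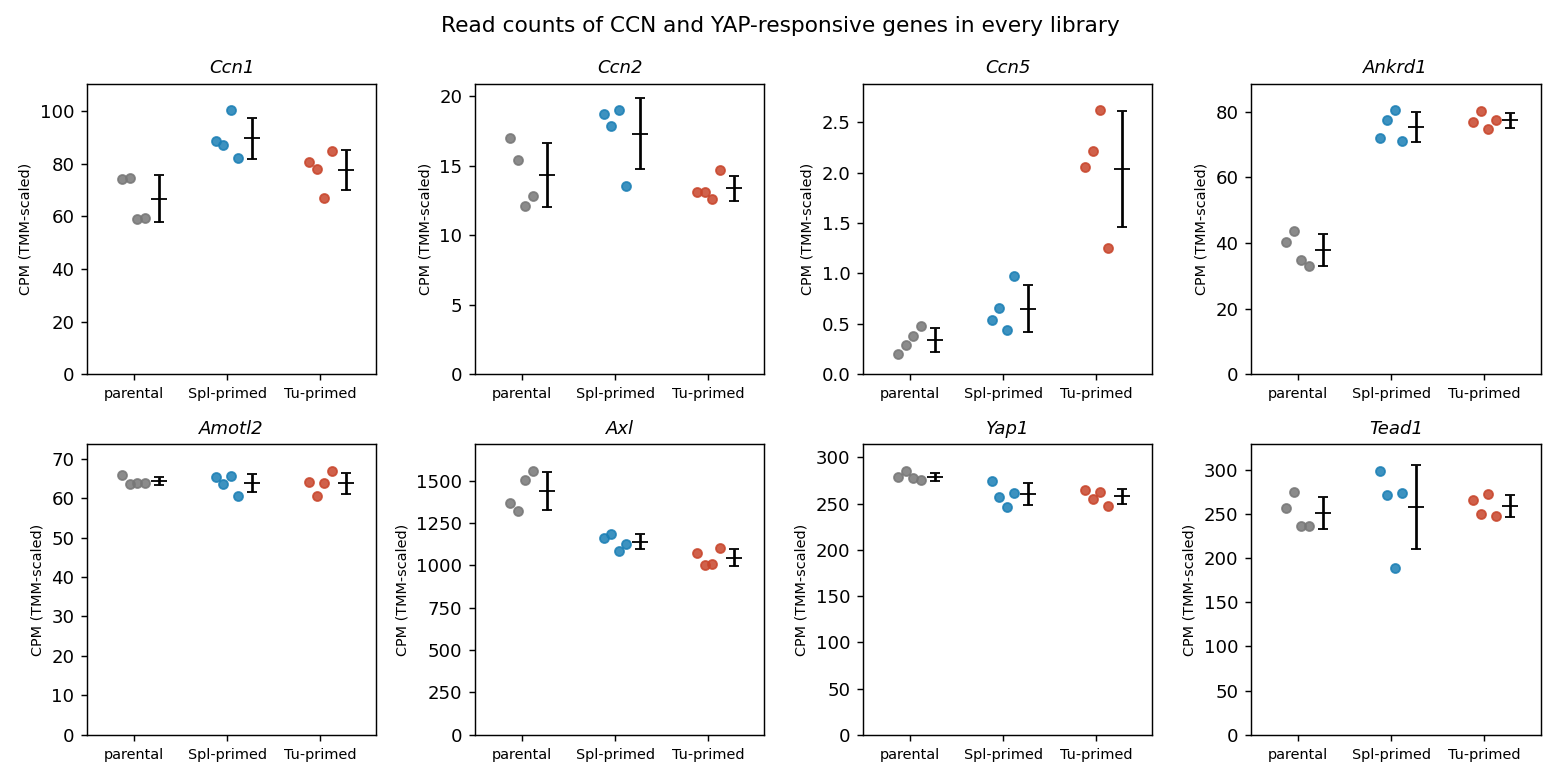
TMM-scaled CPM of each gene in parental, Spl-primed and Tu-primed cells. Points are libraries (4 per group), and the black marks are the mean ± SD. *Ankrd1* in both primed groups lies above every parental library, *Axl* lies below every parental library, and *Ccn5* in Tu-primed cells lies above every other library.

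*Ccn5* encodes a CCN protein that lacks the C-terminal domain of its relatives. It lies on chromosome 2 from 163820861 to 163833146 (plus strand, GRCm38). It had 58, 57, 75 and 36 counts in the Tu-primed libraries, 17, 18, 12 and 28 in the Spl-primed libraries, and 6, 7, 9 and 12 in the parental libraries. These are CPM of 2.06, 2.21, 2.62 and 1.25, of 0.53, 0.65, 0.44 and 0.97, and of 0.20, 0.29, 0.38 and 0.48. Every Tu-primed library was above every Spl-primed and parental library, whereas the Spl-primed and parental libraries overlapped. Means were 2.04 ± 0.575 CPM in Tu-primed, 0.649 ± 0.234 in Spl-primed and 0.337 ± 0.119 in parental cells (SD, n = 4). The log2 fold change was 1.64 between Tu-primed and Spl-primed cells (standard error 0.30, edgeR adjusted p = 0.00357) and 2.59 between Tu-primed and parental cells (standard error 0.33, edgeR adjusted p = 2.09e-05). Leaving out each library in turn kept the Tu-primed against Spl-primed value between 1.49 and 1.90. The increase of 0.95 from parental to Spl-primed cells (standard error 0.37, edgeR adjusted p = 0.0445) rested on few reads and was no longer called in 7 of 12 fits that left out a library (Tu-primed 1 or 2, Spl-primed 2 or 4, or parental 1, 2 or 3), with the weakest value, 0.69 (adjusted p = 0.154), without Spl-primed library 4. The gene passed the filter on low counts through the primed groups, and with a minimum of 10 counts in every library it was not tested. With no filter, Tu-primed cells were higher than Spl-primed cells by 1.66 (adjusted p = 0.00238) and than parental cells by 2.59 (adjusted p = 7.18e-06), and the difference of Spl-primed from parental cells, 0.93, did not pass (adjusted p = 0.0624).

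*Ccn1* encodes a secreted ligand of integrins and a classical YAP target, on chromosome 3 from 145646976 to 145649981 (minus strand). Its CPM were 80.7, 78.1, 67.0 and 84.8 in Tu-primed libraries, 88.9, 87.1, 100.5 and 82.3 in Spl-primed libraries, and 74.4, 74.5, 58.9 and 59.3 in parental libraries. All 4 Spl-primed libraries were above the parental libraries, and Tu-primed libraries overlapped both. Spl-primed cells were higher than parental cells by 0.42 on the log2 scale (standard error 0.10, edgeR adjusted p = 0.00260), between 0.35 and 0.48 with any library left out. For Tu-primed against parental cells the value was 0.22 (adjusted p = 0.0671), which passed the threshold in 4 of 12 fits that left out a library (Tu-primed 3, Spl-primed 3, parental 1 or parental 2), with at least 10 counts in every library (0.23, adjusted p = 0.0450) and with protein-coding transcripts only (0.26, adjusted p = 0.0370). Between the primed groups the value was -0.21 (adjusted p = 0.217).

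*Ccn2* encodes connective tissue growth factor, on chromosome 10 from 24595442 to 24598683 (plus strand). It had CPM of 13.1, 13.1, 12.6 and 14.6 in Tu-primed libraries, 18.7, 17.9, 19.0 and 13.5 in Spl-primed libraries, and 17.0, 15.4, 12.1 and 12.8 in parental libraries. Library 4 of the Spl-primed group lay with the Tu-primed libraries, and the other 3 above them. *Ccn2* passed the test in none of the 3 comparisons: the log2 fold change was -0.37 between Tu-primed and Spl-primed cells (standard error 0.12, edgeR adjusted p = 0.0754), -0.10 for Tu-primed against parental (adjusted p = 0.488) and 0.27 for Spl-primed against parental (adjusted p = 0.0789). Without Spl-primed library 4, the value between the primed groups was -0.47 (adjusted p = 0.0167) and that of Spl-primed against parental cells 0.37 (adjusted p = 0.0142). Without parental library 1 the value of Spl-primed against parental cells was 0.36 (adjusted p = 0.0270).

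*Ankrd1* encodes CARP, a nuclear and sarcomeric ankyrin repeat protein that is induced by YAP and by mechanical load, on chromosome 19 from 36111961 to 36120099 (minus strand). It had CPM of 77.0, 80.2, 74.9 and 77.6 in Tu-primed libraries, 71.9, 77.6, 80.6 and 71.1 in Spl-primed libraries, and 40.2, 43.5, 34.8 and 32.9 in parental libraries. Every primed library was above every parental library, and the primed groups overlapped throughout. The mean rose from 37.9 ± 4.88 CPM in parental cells to 75.3 ± 4.55 in Spl-primed and 77.4 ± 2.21 in Tu-primed cells (SD, n = 4). The log2 fold change against parental cells was 1.03 in Tu-primed cells (standard error 0.08, edgeR adjusted p = 2.95e-07) and 0.99 in Spl-primed cells (standard error 0.08, edgeR adjusted p = 7.08e-07). Leaving out each library in turn kept these between 0.97 and 1.102 and between 0.93 and 1.06. Between the primed groups the value was 0.04 (standard error 0.08, edgeR adjusted p = 0.802).

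*Axl* encodes a receptor tyrosine kinase that binds GAS6 and is transcribed in response to YAP in several cell types, on chromosome 7 from 25757273 to 25788705 (minus strand). It was the most abundant of the 8 genes. CPM were 1071, 1001, 1008 and 1101 in Tu-primed libraries, 1161, 1184, 1087 and 1126 in Spl-primed libraries, and 1371, 1322, 1504 and 1558 in parental libraries. All primed libraries were below all parental libraries, and parental libraries 3 and 4 were the highest of all. The log2 fold change against parental cells was -0.46 in Tu-primed cells (standard error 0.06, edgeR adjusted p = 2.82e-05) and -0.34 in Spl-primed cells (standard error 0.06, edgeR adjusted p = 0.000603). Without each library in turn these stayed between -0.50 and -0.42 and between -0.38 and -0.30. The difference between the primed groups, -0.13, did not pass (adjusted p = 0.247).

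*Amotl2* encodes an angiomotin-like scaffold that binds YAP and is also induced by it, on chromosome 9 from 102716672 to 102733418 (plus strand). Its group means were 63.8 ± 2.65 CPM in Tu-primed, 63.8 ± 2.30 in Spl-primed and 64.3 ± 1.03 in parental cells (SD, n = 4). All libraries lay between 60.4 and 66.9 CPM. The log2 fold change was 0.00 between the primed groups and -0.01 in each primed group against parental cells (standard error 0.05 each), with adjusted p between 0.851 and 0.998.

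*Yap1* encodes the coactivator YAP itself, on chromosome 9 from 7931999 to 8004596 (minus strand). It had CPM of 265, 255, 263 and 248 in Tu-primed libraries, 275, 258, 246 and 262 in Spl-primed libraries, and 279, 286, 277 and 275 in parental libraries. In TMM-scaled CPM every parental library lay above every primed library, though parental library 4 and Spl-primed library 1 were less than 1 CPM apart. This order depends on the lower TMM factors of the parental libraries. The log2 fold change was -0.12 in Tu-primed cells against parental cells (standard error 0.05, edgeR adjusted p = 0.0478), which was lost in 9 of 12 fits that left out a library, remaining called only without Spl-primed library 1 or 3 or parental library 4, and -0.10 in Spl-primed cells (standard error 0.05, edgeR adjusted p = 0.0885). The Spl-primed value passed the test with RLE normalization (-0.13, adjusted p = 0.0356), with DESeq2 (-0.13, adjusted p = 0.00818) and without Spl-primed library 1 (-0.13, adjusted p = 0.0431). With transcript length offsets it was -0.21 (DESeq2 adjusted p = 0.00137), and with limma-trend on the deposited normalized values -0.21 (adjusted p = 0.0106). *Tead1* encodes the TEAD family member that partners with YAP, on chromosome 7 from 112679318 to 112906807 (plus strand). It had CPM of 266, 249, 272 and 247 in Tu-primed libraries, 299, 272, 189 and 273 in Spl-primed libraries, and 256, 275, 236 and 237 in parental libraries. No comparison of *Tead1* passed the test, with adjusted p between 0.755 and 0.995. The low value of Spl-primed library 3 set its mean, and without that library the log2 fold change of Spl-primed against parental cells was 0.15 (adjusted p = 0.04995).

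**Figure D3:**
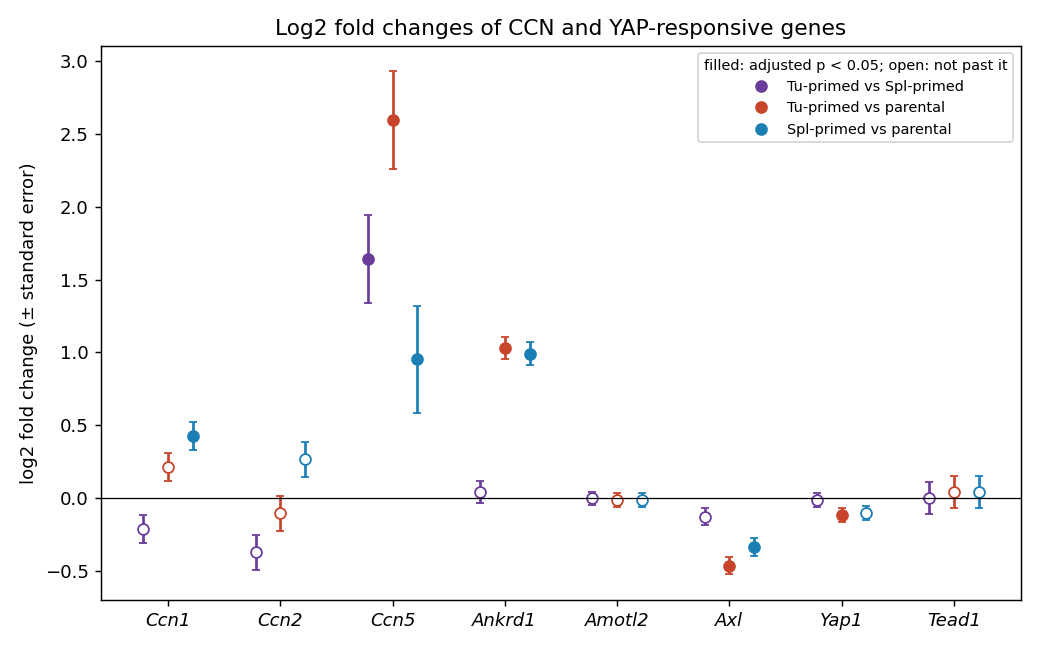
Log2 fold change ± standard error of each gene for Tu-primed against Spl-primed, Tu-primed against parental and Spl-primed against parental cells. Filled points passed an adjusted p of 0.05. *Ccn5*, at 1.64, is the only filled point of the comparison between the primed groups, and *Ankrd1* sits close to 1 in both comparisons with parental cells.

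Levels can be set between genes per length, as TPM, within a group. TPM carry no TMM factor. Mean TPM of all 8 genes, *Axl* and *Yap1* included, was higher in both primed groups than in parental cells, which was not tested. For *Amotl2* it was 23.0 in parental, 32.4 in Spl-primed and 36.3 in Tu-primed cells. In parental cells the order was *Axl* (603.3 TPM), *Yap1* (87.3), *Ccn1* (38.0), *Tead1* (35.2), *Amotl2* (23.0), *Ankrd1* (21.6), *Ccn2* (6.72) and *Ccn5* (0.246). *Ccn1* and *Tead1*, with SDs of 8.98 and 4.92 TPM, did not differ beyond their spread, nor did *Amotl2* and *Ankrd1*, with SDs of 3.30 and 5.05 TPM. In Tu-primed cells *Axl* and *Yap1* again led, followed by *Ankrd1* at 60.6 ± 0.868 TPM beside *Ccn1* at 59.99 ± 5.07 TPM, and *Ccn5* was last at 2.17 ± 0.672 TPM (SD, n = 4). In Spl-primed cells *Ccn1* (66.4 TPM) was followed by *Ankrd1* (56.2 TPM) and *Tead1* (47.2 TPM, SD 13.6), and *Ccn2* stood at 10.5 TPM.

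The reads of *Ankrd1* were assigned almost entirely to the protein-coding transcript Ankrd1-205. A retained-intron transcript, Ankrd1-202, held 4.91%, 6.62%, 7.35% and 4.93% of the reads of the gene in Tu-primed libraries. It held 2.16%, 2.69%, 1.88% and 4.38% in Spl-primed libraries and 1.23%, 0.44%, 0.61% and 0.39% in parental libraries. The 3 groups did not overlap in this share, which rests on between 3.22 and 157.4 estimated reads per library and was picked out after its values were seen. Over all transcripts of *Ankrd1* not annotated as protein coding, the share was 7.20% ± 1.65 in Tu-primed, 3.84% ± 1.20 in Spl-primed and 0.972% ± 0.987 in parental cells (SD, n = 4). The difference between Tu-primed and parental cells had a two-sided exact permutation p of 0.0286, the smallest that 4 against 4 libraries can give, and 0.129 after adjustment over 18 such tests, so that none of the 18 passed. For *Tead1* the share was 0.732%, 0.606% and 0.160% in the same order, with an exact permutation p of 0.0286 for each primed group against parental cells (adjusted p = 0.129). For *Ccn5*, the share was 10.9% ± 3.98 in Tu-primed and 0% in Spl-primed cells (SD, n = 4), with an exact permutation p of 0.0286 (adjusted p = 0.129), from at most 8.31 estimated reads per library. In parental cells it was 11.1% ± 15.6. *Ccn1* had a single transcript with reads and *Ccn2* only protein-coding ones.

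*Amotl2*, level as a gene in TMM-scaled CPM, had reads divided between transcripts that begin at different places. Amotl2-201 held 58.1% ± 19.4 of its reads in parental cells, 29.2% ± 14.7 in Spl-primed and 29.3% in Tu-primed cells (SD, n = 4). Amotl2-203, which starts 2619 bases downstream, held 27.6%, 43.9% and 50.5% in the same order. The groups overlapped in the shares of Amotl2-201 and Amotl2-203. These transcripts were picked after their values were seen, and their differences were not tested. With offsets for transcript length, the log2 fold change of *Amotl2* between Tu-primed and parental cells was 0.18 and did not pass.

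**Figure D4:**
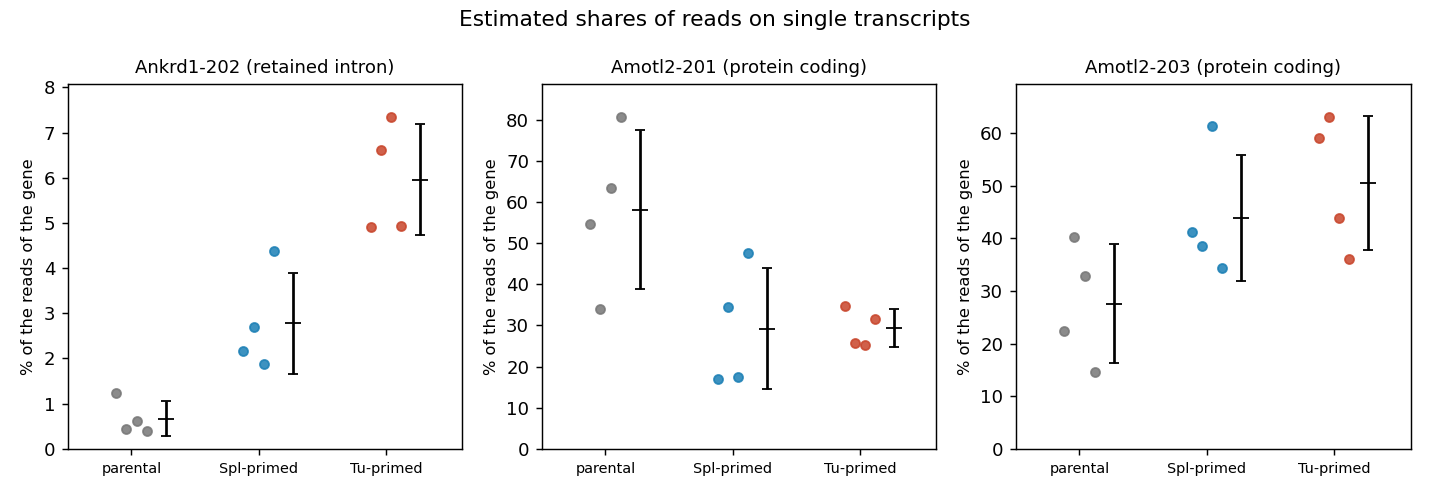
Share of the estimated reads of the gene on Ankrd1-202, Amotl2-201 and Amotl2-203 in each library, with the mean ± SD in black. The retained-intron transcript of *Ankrd1* is below 2% of its reads in parental libraries and above 4% in Tu-primed libraries.

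The wider list of YAP target genes held 22 symbols, of which 20 were tested. Without the 5 described above, 15 were tested: 3 were higher and 0 lower in Tu-primed than in Spl-primed cells, 7 higher and 1 lower in Tu-primed than in parental cells, and 4 higher and 0 lower in Spl-primed than in parental cells. Over all genes 4.66% were higher and 2.97% lower, 31.2% higher and 28% lower, and 25.7% higher and 22.5% lower in the same comparisons. The median log2 fold changes of the 15 genes were 0.07, 0.00 and -0.05, beside -0.01, 0.02 and 0.02 over all genes. *Nt5e*, the ectonucleotidase CD73, rose from 131 CPM in parental to 197 CPM in Spl-primed and 274 CPM in Tu-primed cells, a log2 fold change of 0.48 between the primed groups (standard error 0.08, edgeR adjusted p = 0.00119). *Gadd45a*, a stress-induced growth arrest gene, rose from 4.12 to 6.03 and 8.61 CPM, with 0.52 between the primed groups (standard error 0.09, edgeR adjusted p = 0.00340), which was not called with transcript length offsets or limma-trend. *Arhgef17* was higher in Tu-primed than Spl-primed cells by 0.55 (standard error 0.09, edgeR adjusted p = 0.00125). *F3*, coding for tissue factor, was higher in Spl-primed than parental cells by 0.58. *Rbms3*, at 0.429 CPM in parental cells, was higher in Tu-primed than parental cells by 0.86. That call was not made with at least 10 counts in every library, with transcript length offsets or with limma-trend.

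**Figure D5:**
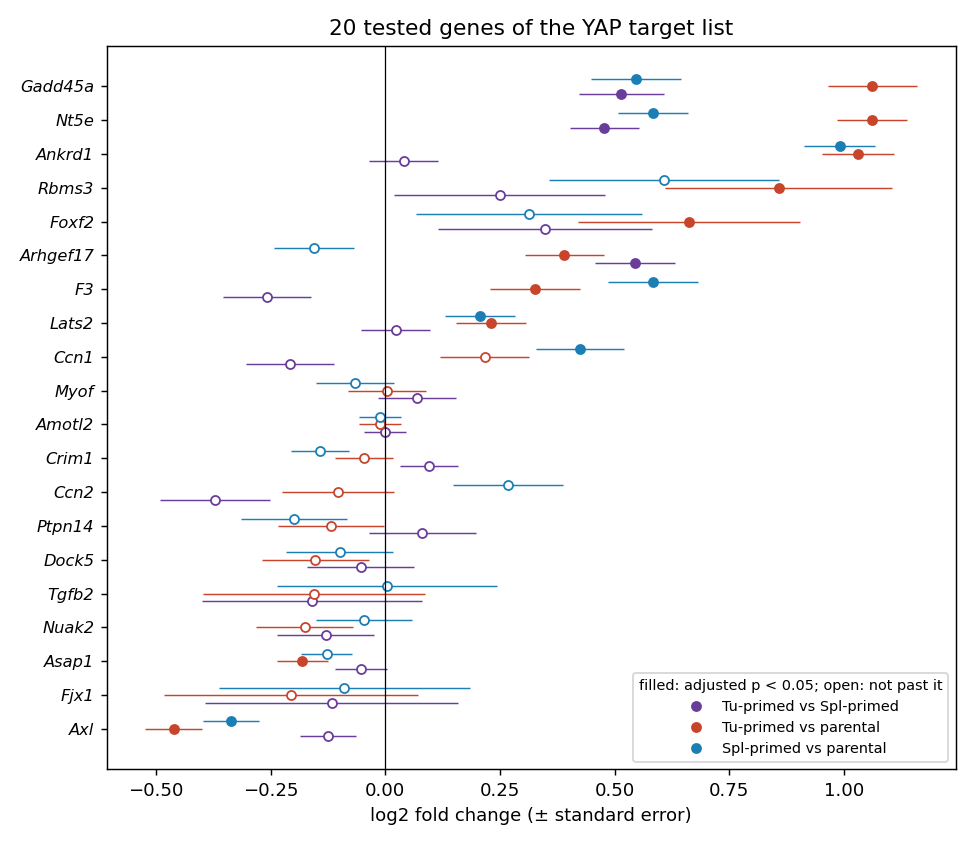
Log2 fold change ± standard error of the 20 tested genes of the YAP target list in the 3 comparisons, ordered by Tu-primed against parental cells. Filled points passed an adjusted p of 0.05. For Tu-primed against parental cells, *Gadd45a*, *Nt5e* and *Ankrd1* have the highest values and *Axl* the lowest.

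Among the other CCN genes, *Ccn3* and *Ccn4* were tested and *Ccn6* had no reads. *Ccn4* rose from 2.43 CPM in parental to 3.83 CPM in Spl-primed cells, 0.65 on the log2 scale (edgeR adjusted p = 0.0258), a call lost without Spl-primed library 4, parental library 3 or parental library 4, with transcript length offsets and with limma-trend. It rose to 5.63 CPM in Tu-primed cells, 1.21 on the log2 scale (edgeR adjusted p = 0.000317). *Ccn3* was higher in Tu-primed than parental cells by 0.32, which was not called without parental library 3 or 4. Between the primed groups *Ccn3* had a log2 fold change of 0.07 and *Ccn4* of 0.55 (adjusted p = 0.123). Of 8 CCN receptors, all were tested: 2 were higher in Tu-primed than Spl-primed cells, 1 was higher in Tu-primed than parental cells, and 1 was higher and 2 lower in Spl-primed than parental cells. These are 25%, 12.5% and 37.5% of the receptors, against 7.63%, 59.2% and 48.2% of all genes. *Itgb3*, the integrin subunit that pairs with αv to bind CCN1, averaged 30.2 CPM in parental, 48.96 CPM in Spl-primed and 81.1 CPM in Tu-primed cells, with a log2 fold change of 0.73 between the primed groups (standard error 0.11, edgeR adjusted p = 0.00104). *Sdc4*, a heparan sulfate proteoglycan, was higher in Tu-primed than Spl-primed cells by 0.33 (edgeR adjusted p = 0.000778), was lower in Spl-primed than parental cells (-0.27, edgeR adjusted p = 0.000555), and had a value of 0.06 in Tu-primed against parental cells (adjusted p = 0.343).

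Of the 4 AXL partners, 3 were tested, and *Gas6*, the ligand of AXL, had no reads in any library. In each of the 3 comparisons 1 of the 3 genes was called, higher each time, against 4.66%, 31.2% and 25.7% of all genes. Without Spl-primed library 3, 2 were called between the primed groups, 1 higher and 1 lower, the lower being *Mertk*. Without parental library 2, 2 were called in each comparison with parental cells, 1 higher and 1 lower. *Pros1*, encoding protein S, a ligand of the related receptors TYRO3 and MERTK, averaged 6.21 CPM in parental, 7.82 CPM in Spl-primed and 19.1 CPM in Tu-primed cells. It was higher in Tu-primed than Spl-primed cells by 1.28 (standard error 0.17, edgeR adjusted p = 0.000293) and than parental cells by 1.61 (edgeR adjusted p = 5.71e-06). *Mertk* was called higher in Spl-primed than parental cells by 0.28 (edgeR adjusted p = 0.0457), a call lost in 10 of 12 fits that left out a library, and had a value of -0.33 between the primed groups (adjusted p = 0.0803). *Tyro3* passed the test in no comparison, but without parental library 2 it was called lower in each primed group than in parental cells.

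The Hippo pathway and YAP and TEAD list held 34 genes, 30 of them tested. Between the primed groups 0 were higher and 1 lower, *Wwc1*, coding for the upstream regulator KIBRA, by -0.28 (edgeR adjusted p = 0.0355), against 4.66% of all genes higher and 2.97% lower. This call was lost in 6 of 12 fits that left out a library (Tu-primed 1, 2 or 3, or Spl-primed 1, 2 or 3) and in 5 of 11 other settings. The list had 2 genes called, 1 higher and 1 lower, with upper-quartile normalization, with DESeq2, and without Spl-primed library 4 or parental library 4. Against parental cells 8 were higher and 10 lower in Tu-primed cells, *Yap1* among the lower, and 6 higher and 9 lower in Spl-primed cells. These are 60% and 50% of the list, close to the 59.2% and 48.2% of all genes called. *Rassf1*, a scaffold of the kinases, averaged 28.3 CPM in parental, 51.7 CPM in Spl-primed and 49.2 CPM in Tu-primed cells, and was not called with protein-coding transcripts only. *Stk3*, the kinase MST2, was lower by 0.36 in Tu-primed (log2 fold change -0.36, edgeR adjusted p = 9.27e-05) and by 0.44 in Spl-primed cells (log2 fold change -0.44, edgeR adjusted p = 4.07e-05). Of the genes that respond to SRF and its actin-sensing cofactors, 12 of 16 were tested. *Tagln2* alone was called between the primed groups, higher in Tu-primed cells by 0.21 (edgeR adjusted p = 0.0272). This is 8.33% of the list, against 7.63% of all genes. The call was lost in 6 of 12 fits that left out a library, with upper-quartile normalization and with a replicate block. Against parental cells 2 were higher and 7 lower in Tu-primed cells and 2 higher and 6 lower in Spl-primed cells, the lower ones including the actin genes *Actb* and *Actg1* and the actin cross-linker *Flna*. Over all genes 31.2% were higher and 28% lower in Tu-primed cells, and 25.7% higher and 22.5% lower in Spl-primed cells. With only the 8 libraries compared, or with protein-coding transcripts only, 5 genes of the list rather than 8 were called in Spl-primed cells, 1 higher and 4 lower. The call of *Flna* in Spl-primed cells was not made with transcript length offsets or limma-trend. 1 of the higher genes, *Mrtfa*, averaged 0.0384 CPM in parental cells, below the level of 3 counts in any library, and it passed the filter on low counts only through the primed groups, so nothing is read from its call. Of the others in Spl-primed cells, *Tagln2* was lost in 11 of 12 fits that left out a library, and *Vcl* without Spl-primed library 4, parental library 1 or parental library 3. Of 12 TGF-beta ligands and response genes, 1 was higher between the primed groups (*Tgfbr1*, 0.44), a call that was lost without Tu-primed library 1, 2 or 3 or Spl-primed library 2. This is 8.33% of the list, against 7.63% of all genes called. With DESeq2, or with only the 8 libraries compared, 2 were higher, the added gene being *Tgfbi*. *Tgfbi* averaged 0.862 CPM in Tu-primed, 0.314 CPM in Spl-primed and 0.342 CPM in parental cells. It had 165 counts over the 12 libraries, so nothing is read from its calls. Against parental cells 6 were higher, *Tgfbi* among them, and 3 lower in Tu-primed cells, and 4 were higher and 2 lower in Spl-primed cells. These are 75% and 50% of the list, against 59.2% and 48.2% of all genes. *Tgfb1* was lower (-0.72 and -0.61) and *Skil* and *Smad7*, inhibitors of the pathway that it induces, were higher.

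The genes nearest in pattern were found as the smallest root mean square difference of mean-centered log2 CPM over the 12 libraries. For *Ccn5* they were *Trp63*, encoding the epithelial factor p63, at 0.29, and *Osmr*, the oncostatin M receptor, at 0.33, where *Ccn5* itself varied by 1.05 about its mean. For *Ankrd1* they were *Trmt13* at 0.05 and *Med20* at 0.07, beside its own 0.49. For *Ccn1* they were *Exosc7* at 0.08 and *Myc* at 0.08, beside 0.22, and for *Ccn2* *Cth* and *Cbx8*. For *Axl* they were the splicing factor gene *Sf3a1* at 0.04 and *Dtnb* at 0.04, beside 0.21. *Yap1* was nearest to *Sfpq* and *Acad9*, and *Tead1* to *Qser1* and *Btbd7*. These are descriptions over 12 libraries that share their groups and depth.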

How the data were processed

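RNA was sequenced from 4T1 cells in 3 groups of 4 libraries (TruSeq Stranded). Per the labels' processing notes the authors used FastQC, Trimmomatic 0.39 and Salmon 1.4.0 with GRCm38 (mm10). The annotation release is not given in the sources used here. The authors deposited, for each library, the estimated count of reads per Ensembl transcript, not normalized, and TPM values, scaled by the authors' quantification for transcript length and depth. The authors also deposited gene-level values scaled between libraries (unit: normalized signal), used here only as an alternative. Estimates divide reads among similar transcripts, so shares of single transcripts are less certain than gene sums. TPM was used mainly between genes within a group, and differences of gene TPM between groups were not tested.

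Estimated counts were summed per gene with GENCODE M21, whose annotation held 116021 of the 117081 transcripts listed. Transcripts missing from it took from 0.326% to 0.419% of each library. Sums were rounded. Library totals lay between 24566183 and 31637755. The spread of 4 libraries gives the precision. A gene at 0 could have up to 3 counts at this depth. In R 4.3.3 with edgeR 4.0.16, filterByExpr, TMM and the quasi-likelihood test were run in a single fit of the 12 libraries, with Benjamini-Hochberg adjustment per comparison and a threshold of 0.05. Log2 CPM used a prior count of 2. Tables and plots used Python 3.11.15. Test code was checked on simulated data. Promoter windows came from RefSeq (GRCm38.p6).

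The 8 genes and the lists were chosen with earlier results of these data known. The text names the 8 genes, at most the 4 genes of a list with the largest absolute log2 fold change among those called, and the 2 genes nearest in pattern to each, which for *Amotl2* are not reported here. *Ptprc* and other markers, *Tagln2*, *Vcl*, *Tyro3*, and genes of lists with no reads, were named after their values were seen. Alternatives were normalization by RLE or by the upper quartile, no filter, a minimum of 10 counts per library, DESeq2 1.42.0 (also with transcript length offsets), limma-voom and limma-trend (limma 3.58.1), 8 libraries, a replicate block, protein-coding transcripts only, an adjusted p under 0.01, shares of TPM, and leaving out each library.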

Additional observations from a re-analysis of the deposited data

Results flagged for a closer look

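Among the 24 sets of 4 libraries checked (8 genes in 3 groups), 1 held a library far from the others. The log2 CPM of *Amotl2* in the highest parental library was 6.04, while the nearest of the other parental libraries was at 5.999 and the lowest at 5.99. The gap took up 0.877 of the range, above Dixon's critical value for 4 libraries. Chance gives such a library in about 1 of 20 sets, and the parental libraries of *Amotl2* span less than 3 CPM.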

How the results depend on the processing

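The higher level of *Ccn5* in Tu-primed cells against either other group, of *Ankrd1* in both primed groups and of *Ccn1* in Spl-primed cells, and the lower level of *Axl* in both primed groups, kept their direction and passed the threshold in every fit in which the gene was tested, including each fit without 1 library. *Ccn5* has between 6 and 12 counts in parental libraries and was not tested with at least 10 counts in every library. The weak calls among the 8 genes did not. *Ccn5* between Spl-primed and parental cells was lost in 7 of 10 other settings (adjusted p up to 0.141), and *Yap1* between Tu-primed and parental cells in 5 of 11. Over these 11 settings that *Yap1* value ran from -0.21 to -0.07, with adjusted p between 0.00114 and 0.222. *Yap1* between Spl-primed and parental cells (adjusted p = 0.0885 with edgeR and TMM) was called with RLE normalization, DESeq2, transcript length offsets and limma-trend. The number of the 8 genes called between the primed groups was 1, but 0 with at least 10 counts in every library, since *Ccn5* then dropped out, and 2 with DESeq2, which added *Ccn2*. It was between 1 and 2 with each library left out, 2 being without Spl-primed library 4. Same-numbered libraries did not deviate together: over 12 pairs the correlation ran from -0.164 to 0.148, and 2 pairs exceeded 0.1. With a replicate block, 1, 3 and 3 of the 8 genes were called, without *Yap1* (-0.12, adjusted p = 0.0725) in Tu-primed and *Ccn5* (0.96, adjusted p = 0.0745) in Spl-primed cells against parental cells.

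Some log2 fold changes that did not pass the test changed sign, and the cause was not tested. Between the primed groups, *Ankrd1* was -0.0103 with protein-coding transcripts only, *Amotl2* -0.00679 and *Tead1* -0.000798 with upper-quartile normalization, and *Yap1* 0.00320 with no filter, 0.00150 with 8 libraries, 0.00230 with transcript length offsets and 0.00466 with limma-trend. For Tu-primed against parental cells, *Amotl2* was 0.00717 with upper-quartile normalization, 0.00716 with at least 10 counts, 0.00719 with protein-coding transcripts, 0.18 with offsets and 0.179 with limma-trend. For Spl-primed against parental cells, *Amotl2* was 0.0140, 0.00256, 0.0657 and 0.0552 with upper-quartile normalization, at least 10 counts, offsets and limma-trend, and *Tead1* was -0.00829 with offsets and -0.0582 with limma-trend. With each library left out, values between the primed groups ran from -0.0238 to 0.0315 for *Amotl2*, from -0.0274 to 0.0138 for *Yap1* and from -0.103 to 0.0797 for *Tead1*. *Amotl2* ran from -0.0356 to 0.0133 in Tu-primed and from -0.0430 to 0.0121 in Spl-primed against parental cells, and *Tead1* from -0.0375 to 0.147 in Spl-primed against parental cells. As shares of TPM, differences in the share of transcripts not annotated as protein coding, in percentage points, turned from -0.147 to 2.70 for *Ccn5* between Tu-primed and parental cells, from -0.756 to 2.32 for *Amotl2* and from 0.188 to -0.322 for *Yap1* between the primed groups, and from 0.647 to -0.187 for *Axl* and from -0.282 to 0.152 for *Yap1* between Spl-primed and parental cells. Over all settings, an adjusted p under 0.01 included, the genes called against parental cells ran from 11 to 19 in Tu-primed and from 9 to 18 in Spl-primed cells for the Hippo list, from 6 to 12 and from 5 to 9 for YAP targets, from 7 to 9 and from 5 to 9 for SRF and MRTF genes, and from 4 to 9 and from 4 to 7 for TGF-beta genes.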
